A study of Mus musculus with 32 samples.

Results

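The distal end of mouse chromosome 18 is covered in these data by 952 exon probe sets of 83 genes, out of 188590 probe sets on the arrays. A member is a probe set with exactly 1 annotated gene symbol whose gene starts at or beyond 65 Mb on the chromosome in the GRCm38 annotation, and 6 genes of the interval, with 108 probe sets, are left out by the rule. Malt1 is the first gene and Tmx3 the last. A gene had between 1 and 54 probe sets, with a median of 10; 4 genes had 1 probe set, 5 had 2 and 74 had 3 or more. Of the 83 genes, 82 are protein coding, among 112 protein-coding genes that RefSeq lists for the interval. The chromosome was chosen by how many of its features had passed in this same comparison of ISCL4 with FVB-like mice, so the counts, differences and adjusted p values given for its members describe them and are not further evidence that the chromosome stands apart.

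RNA was taken from the hippocampus of 16 male mice aged 6 to 8 weeks and hybridised to exon arrays, 1 array per mouse. There were 8 Sicd2-ISCL4 subcongenics (ISCL4 mice) and, as controls, 8 FVB-like littermates. Each mouse, with its pair of hippocampi combined, is 1 replicate, and each array was summarised both per exon probe set and per gene. Replicates 1 to 4 of each group form array set A and replicates 5 to 8 array set B, after the 2 naming schemes of the array files, and the labels do not say what these schemes stand for. The labels name no treatment, no genotype beyond the line and no donor strain.

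A congenic mouse carries a chromosome segment of one strain on the background of another, and a subcongenic carries a shortened piece of that segment. Sicd2 is a locus of chromosome 15 for susceptibility to seizure-induced cell death, so the genes described here lie on another chromosome than the locus that gives the line its name. Distal chromosome 18 holds genes of very different roles. Smad2, Smad4 and Smad7 belong to the pathway by which TGF-beta receptors signal to the nucleus: Smad2 is phosphorylated by the receptor, Smad4 is the partner it enters the nucleus with, and Smad7 inhibits the receptor. Ctdp1 is a phosphatase of the C-terminal domain of RNA polymerase II and Rnmt the methyltransferase that completes the cap of messenger RNA. An exon array measures each gene at several exons, so a gene whose RNA level shifts as a whole and a gene in which a single probe set differs can be told apart.

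The 16 arrays were alike in overall signal, with medians of 7.74 to 7.78 on the log2 scale, correlations between pairs of 0.954 to 0.987 and 0 identical pairs. Neuronal markers had mean log2 levels of 12.09 to 12.24 in ISCL4 mice and 12.09 to 12.26 in FVB-like mice, and none of the 12 marker lists had a member past an adjusted p of 0.05 in limma's gene-level fit. All 4 measured oligodendrocyte markers had lower means in ISCL4 mice, the differences averaging -0.23 (list levels 9.69 to 10.48 in ISCL4 mice and 9.92 to 10.59 in FVB-like mice), and so did 6 of 6 choroid plexus markers (-0.19; 7.27 to 9.34 in ISCL4 mice and 7.50 to 9.06 in FVB-like mice), 6 of 6 markers of meninges and fibroblasts (-0.17; 7.55 to 8.11 in ISCL4 mice and 7.64 to 8.27 in FVB-like mice) and 4 of 4 striatal markers (-0.15; 7.38 to 8.09 in ISCL4 mice and 7.55 to 8.74 in FVB-like mice). At an unadjusted p under 0.05 limma counted 3 of 4 oligodendrocyte markers and 3 of 6 markers of meninges and fibroblasts. It also counted 2 of 4 dentate granule cell, 2 of 5 endothelial and 2 of 5 astrocyte markers, and none in the other lists. The share over all gene-level features was 14.4%. The part of these marker differences in the results below was not tested. In pieces of whole tissue, fewer cells of a type and less RNA per cell cannot be told apart.

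Along the interval, most probe sets differed little between the groups and a few differed a great deal. A difference is the ISCL4 mean less the FVB-like mean in log2 units, given with its standard error (SE) from limma's fit over all 188590 probe sets, and a probe set is called where its Benjamini-Hochberg adjusted p over all of them was under 0.05. Of the 952 probe sets, 2 were called, both higher in ISCL4 mice, and 0 were called lower; of all probe sets 0.0249% were called, 0.0196% higher and 0.0053% lower. The called probe sets belong to Ctdp1 and Rnmt. The direction of the calls depended on the fit: a trended and robust variance prior called 10, of which 4 were higher and 6 lower, and a filter on dim probe sets called 5, of which 2 were higher and 3 lower. Differences ran from -0.99 to 1.17, with a median of 0.0014 and a median size of 0.103, against 0.102 for all probe sets. ISCL4 mice had the higher mean at 480 of the 952, or 50.4%, against 51.1% of all probe sets. A difference of at least 1.2-fold was seen at 126 members, or 13.2%, and in 13.1% of all probe sets; at least 1.5-fold was seen at 11 members, or 1.16%, and in 1.06% of all. The typical SE was 0.114, or 1.08-fold, so the number of arrays limits what can be seen of smaller differences.

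At an unadjusted p under 0.05, limma's fit counted 129 members, or 13.6%, of which 66 were higher and 63 lower in ISCL4 mice; the share over all probe sets was 10.2%, 5.16% higher and 5.07% lower. Divided by gene order into 4 stretches, the 204 probe sets from Malt1 to Ptpn2 held 22 of these (10.8%), the 276 from Seh1l to Cxxc1 held 46 (16.7%), the 222 from Acaa2 to Pard6g held 35 (15.8%) and the 250 from Adnp2 to Tmx3 held 26 (10.4%). Each stretch had members in both directions, 13 higher and 9 lower in the first, 19 and 27 in the second, 19 and 16 in the third, and 15 and 11 in the last. Rnmt is the 26th of the 83 genes, in the second stretch, and Ctdp1 the 67th, in the last.

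**Figure D1:**
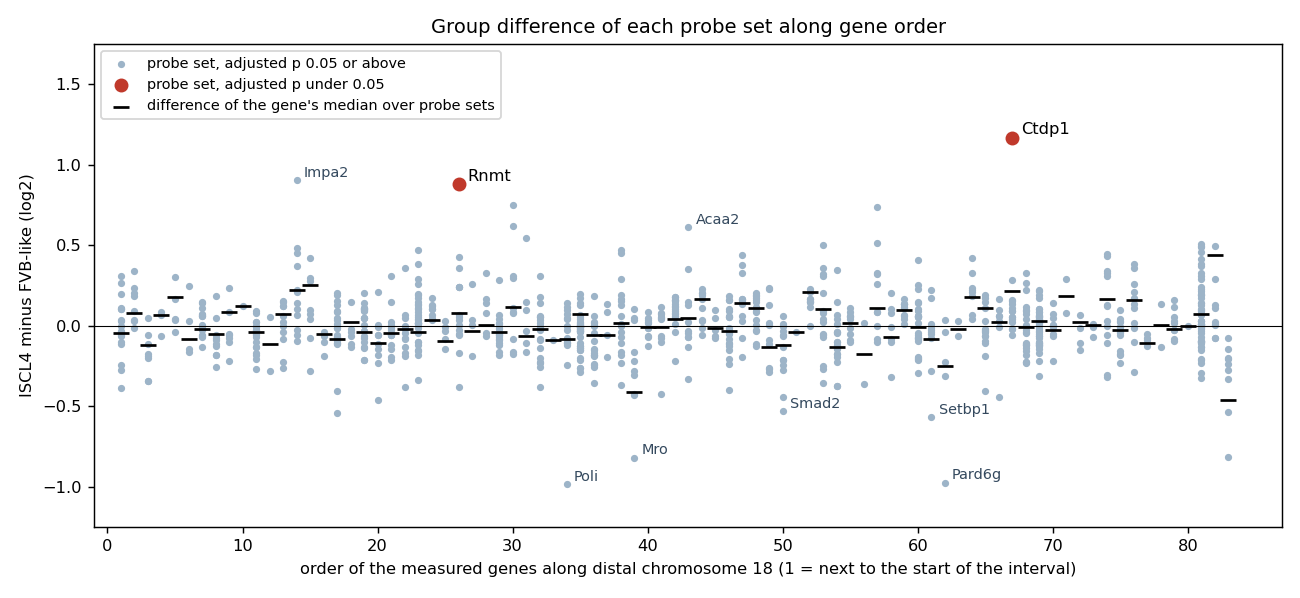
Difference of each of the 952 probe sets (dots; ISCL4 minus FVB-like, log2) against the order of its gene along distal chromosome 18, with the difference of each gene's median as a black dash. The called probe sets of Rnmt (0.88) and Ctdp1 (1.17) are in red, an uncalled one of Impa2 (0.90) lies between them in height, and most gene dashes lie near 0.

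Next to the edge of the interval, 1 of 10 genes differed by more than 0.2. The gene medians (the median over a gene's probe sets on each array) of the first 5 members, Malt1, Zfp532, Sec11c, Grp and Rax, differed by -0.04, 0.08, -0.12, 0.07 and 0.18. Of the last 5 genes before it, Onecut2, Fech, Nars and Nedd4l differed by 0.06, 0.00, -0.05 and -0.05, and Atp8b1 by -0.29 (SE 0.101). At the other end, Cbln2, Socs6 and Rttn differed by -0.02, -0.00 and 0.07, while the last genes, Cd226 and Tmx3, gave the highest and the lowest difference by gene median. For orientation, 19 of 1962 probe sets of the same chromosome from 35 to 65 Mb were called, and 0 of 1594 in the proximal 35 Mb. An unadjusted p under 0.05 was found at 313 (16%) and 221 (13.9%) of these, so the 13.6% of the members is not particular to the distal end.

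Ctdp1 showed the strongest difference of the interval, at a single probe set. Probe set 4690151 had log2 signals of 7.57 (lowest), 7.74 (median) and 8.25 (highest) in ISCL4 mice, against 6.24, 6.56 and 7.24 in FVB-like mice. Every ISCL4 mouse was above every FVB-like mouse. The probe set was 2.24-fold higher in ISCL4 mice, a difference of 1.17 (SE 0.121, limma adjusted p 0.000738) and was above 1.1 in each array set. With 4 mice a group, array set A alone and array set B alone gave adjusted p values of 0.586 and 0.0784. The sequences of the probes and of the mice were not used here, so a signal difference at 1 probe set, here and at Rnmt, is not shown to be a difference in RNA level. The groups failed to overlap in the same way at 3 of the 952 probe sets, against 0.0546% of all probe sets; the other two are those of Rnmt and Smad4 described below.

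The rest of Ctdp1 differed much less. Its other 14 probe sets differed by -0.06 to 0.28, with a median of 0.07, and 12 of all 15 were higher in ISCL4 mice. The median over the gene's probe sets was 7.52, 7.67 and 7.82 (lowest, median, highest) in ISCL4 mice and 7.24, 7.47 and 7.55 in FVB-like mice. On this measure 6 ISCL4 mice exceeded all FVB-like mice, and the difference of 0.22 (SE 0.056) had a limma adjusted p of 0.181 over all genes, so the gene as a whole was not called.

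Rnmt gave the other called probe set. Probe set 4427159 had log2 signals of 8.45, 8.99 and 9.42 (lowest, median, highest) in ISCL4 mice, against 7.91, 8.08 and 8.32 in FVB-like mice. All ISCL4 mice were again above all FVB-like mice. The difference was 0.88 (SE 0.127), or 1.84-fold, with a limma adjusted p of 0.0223, and it measured 0.95 in array set A against 0.80 in array set B (adjusted p 0.586 and 0.533 in each alone). The adjusted p lay close to the threshold: leaving out any one of ISCL4 replicates 4, 5, 6 and 7 or FVB-like replicates 2, 3, 4, 6 and 8 brought it to between 0.0534 and 0.0672.

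Within Rnmt the probe sets pointed both ways. Of its 15, 10 were higher and 5 lower in ISCL4 mice, and the other 14 had a median difference of 0.04. Probe set 4840341 differed by 0.43 and probe set 5202175 by -0.38, neither of them called. The gene's median differed by 0.08 (SE 0.065, limma adjusted p 0.662).

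To set a probe set against the rest of its own gene, its value minus the median of the gene's other probe sets was fitted in the same way, for the 938 members in genes with at least 3 probe sets. This deviation was called at 2 members, both higher in ISCL4 mice, with 0.0175% called over all 176791 probe sets fitted and 0.0119% called higher. They were the same probe sets of Ctdp1 and Rnmt. Relative to the rest of its gene, Ctdp1 probe set 4690151 was 1.03 higher in ISCL4 mice than in FVB-like mice (SE 0.132, limma adjusted p 0.00833), and Rnmt probe set 4427159 was 0.77 higher (limma adjusted p 0.0145). Both calls ended when array set A or array set B was fitted alone, with 4 mice a group.

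**Figure D2:**
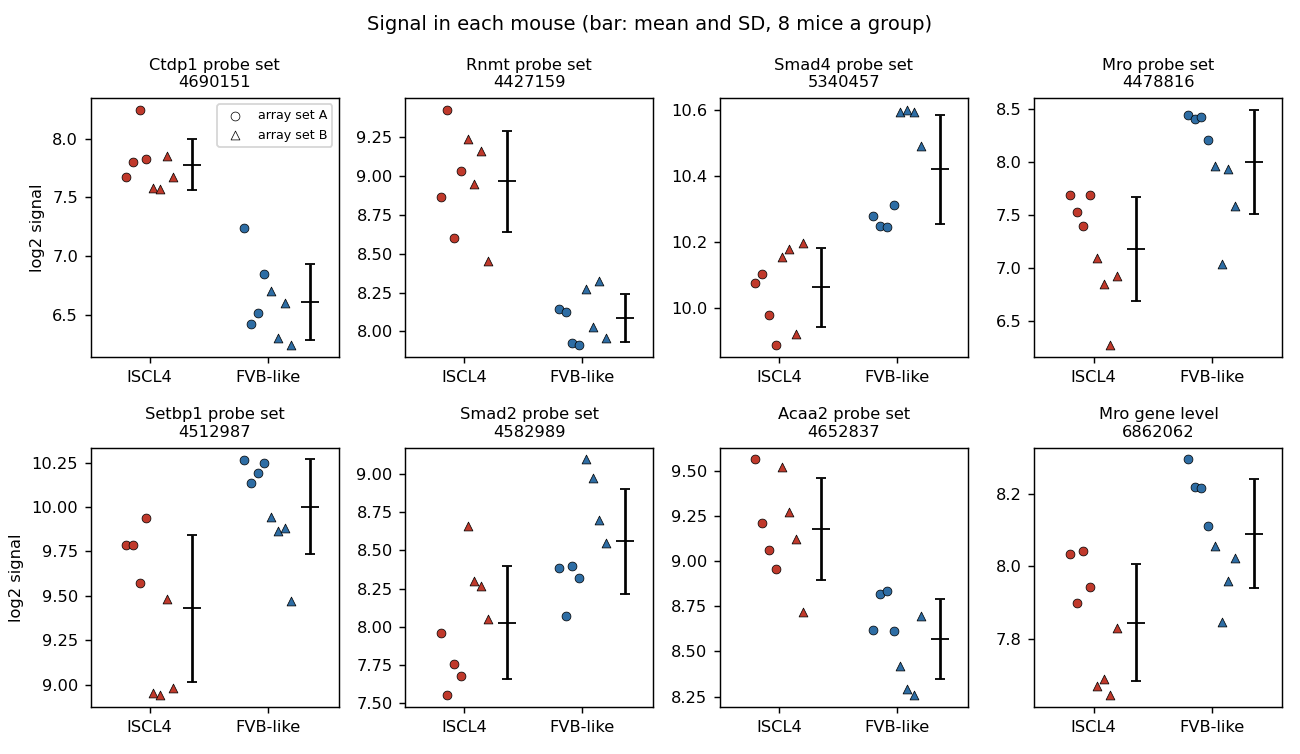
Log2 signal in each mouse for 7 probe sets and the gene-level feature of Mro, with ISCL4 mice on the left of each panel and FVB-like mice on the right, circles for array set A, triangles for array set B, and bars for the mean and SD of 8 mice. Over both array sets together, the groups do not overlap for Ctdp1, Rnmt and Smad4, and overlap in the other panels.

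Gene by gene, the differences on distal chromosome 18 went both ways. The medians over probe sets were higher in ISCL4 mice in 38 genes and lower in 45, where 51.9% of all 15796 genes were higher. The median difference was -0.01, against 0.0055 over all genes, with a range of -0.46 to 0.44, and 54 of 83 genes differed by less than 0.1. In limma's fit 0 of the 83 were called, with 0.057% called in all; 9 had an unadjusted p under 0.05 (10.8%, 4 higher and 5 lower), against 11.4% of all genes, 6.17% higher and 5.27% lower. Limma called 2 of the 83 when the mean of the probe sets replaced the median, Impa2 higher and Mro lower.

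In the deposited gene-level values, which cover 80 of the genes, 1 of 80 was called, Mro, lower in ISCL4 mice; 0.292% of all 16755 features were called, and 0.125% were called lower. For 78 of the 80 genes these values equalled the mean of the gene's exon probe sets to within 0.001, so they are not a second measurement. At an unadjusted p under 0.05 limma counted 16 of 80, or 20%, of which 9 were higher and 7 lower, against 14.4% of all features, 7.51% higher and 6.89% lower.

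Mro encodes maestro, a protein of the nucleolus. Its gene-level signal was 7.64, 7.87 and 8.04 (lowest, median, highest) in ISCL4 mice and 7.85, 8.08 and 8.30 in FVB-like mice. The ranges overlapped over both array sets together, but not within either set. In array set A the highest ISCL4 mouse had 8.04 and the lowest FVB-like mouse 8.11. In array set B these values were 7.83 and 7.85, a narrow gap. The signal fell by 0.25 on the log2 scale (SE 0.042, 1.19-fold, limma adjusted p 0.0216). The difference was -0.23 for array set A and -0.26 for array set B. The call ended without ISCL4 replicate 2 or 6 or FVB-like replicate 7 (adjusted p 0.0504 to 0.0529), and without the array set as a covariate limma's adjusted p was 0.478.

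Most probe sets of Mro shared that direction. Of its 10 probe sets, 7 were lower in ISCL4 mice, each with an unadjusted p under 0.05, and 3 were higher by 0.04 to 0.10. None was called. Probe set 4478816 had signals of 6.27, 7.24 and 7.69 in ISCL4 mice and 7.04, 8.09 and 8.44 in FVB-like mice, a difference of -0.82 (SE 0.136, limma adjusted p 0.0622). With 6 FVB-like mice above all ISCL4 mice, the groups overlapped through the other two. The gene's median differed by -0.41 (SE 0.074, limma adjusted p 0.0609); it was called when FVB-like replicate 4 or 6 was left out, at 0.0475 and 0.0162.

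Among the genes of TGF-beta signalling, 4 were measured, and none was called by gene. Smad7 and Ldlrad4, an inhibitor of the pathway, had the higher median in ISCL4 mice, and Smad2 and Smad4 the lower; the median of the 4 differences was -0.01. At an unadjusted p under 0.05 the fit counted 17 of their 53 probe sets, 6 higher and 11 lower. That is 32.1%, against 10.2% of all probe sets. Of the 11 lower, 8 belong to Smad4, and probe sets of 1 gene on the same arrays are not separate results. This list, too, was chosen with earlier results of these data known.

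At 1 probe set of Smad4 the SE was small beside the typical 0.114. Probe set 5340457 of Smad4 had signals of 9.89, 10.09 and 10.20 in ISCL4 mice and 10.24, 10.40 and 10.60 in FVB-like mice. The groups did not overlap, but the difference, -0.36 (SE 0.063), had a limma adjusted p of 0.0840 and was not called. It measured -0.26 for array set A and -0.45 for array set B. Of the 18 probe sets of Smad4, 12 were lower in ISCL4 mice, 8 of them with an unadjusted p under 0.05. The median over all 18 differed by -0.06 (SE 0.049), and the gene-level value by -0.11 (SE 0.032, limma adjusted p 0.161).

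For Smad2, 12 of 14 probe sets were lower in ISCL4 mice. Probe set 4582989 had signals of 7.55, 8.00 and 8.66 in ISCL4 mice and 8.07, 8.47 and 9.09 in FVB-like mice. The ranges overlapped, and the difference of -0.53 (SE 0.102) was not called, at a limma adjusted p of 0.120. The other family member of the interval ran the opposite way: 10 of 12 Smad7 probe sets were higher in ISCL4 mice, 4 of them with an unadjusted p under 0.05. The median of Smad7 was 8.64, 9.06 and 9.35 in ISCL4 mice and 8.56, 8.84 and 9.30 in FVB-like mice, a difference of 0.14 (SE 0.067, limma adjusted p 0.450), and 1 ISCL4 mouse exceeded all FVB-like mice. Elsewhere in the genome, Smad5 and Smad6 differed by 0.14 and -0.17, and none of the 8 SMAD genes was called by its median.

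Of the 4 genes listed under translation and RNA processing, all had a higher median in ISCL4 mice. The differences were 0.08 to 0.22, with a median of 0.11, and none was called by gene. The list was drawn up with earlier results known and holds both genes with a called probe set. Ctdp1, a phosphatase of RNA polymerase II, fits its name only loosely. Besides Ctdp1 and Rnmt the list holds Txnl4a and Ctif. Txnl4a, a component of the spliceosome, differed by 0.11 (SE 0.058). Ctif, an initiation factor for newly capped messenger RNA, differed by 0.11 (SE 0.070). The direction of Txnl4a depended on the summary: 10 of its 15 probe sets were lower in ISCL4 mice, and its gene-level difference, from the mean of the probe sets, was -0.03 (SE 0.033). An unadjusted p under 0.05 was found at 12 of the list's 60 probe sets (20%, against 10.2% of all probe sets), 9 higher and 3 lower. These include the called probe sets of Ctdp1 and Rnmt.

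Genes of mitochondria and metabolism were the largest group by genes, with 15 measured genes and 143 probe sets. ISCL4 mice had the higher median in 11 and the lower in 4, the median difference was 0.02 and none was called by its median. At an unadjusted p under 0.05, 25 probe sets were counted (17.5%, against 10.2% of all probe sets), 20 higher and 5 lower. The widest differences were those of Cidea, a lipid droplet protein, at 0.25 (SE 0.121; 0.11 at gene level) and Impa2, an inositol monophosphatase, at 0.22 (SE 0.111).

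Several of these genes differed by small amounts in 1 direction over many probe sets. Hdhd2, a hydrolase of the haloacid dehalogenase family, was higher at 8 of 9 probe sets, and its median was 10.21, 10.57 and 10.69 in ISCL4 mice and 10.22, 10.27 and 10.61 in FVB-like mice. A single FVB-like mouse, replicate 7, carried the overlap above 10.37. The difference was 0.21 (SE 0.059, limma adjusted p 0.218), and at gene level 0.15 (SE 0.058, limma adjusted p 0.265). Rbfa, which takes part in assembly of the mitochondrial ribosome, was higher at 8 of 8 probe sets. Its gene-level signal was 7.67, 7.94 and 8.01 in ISCL4 mice and 7.59, 7.69 and 7.83 in FVB-like mice, a difference of 0.21 (SE 0.050, limma adjusted p 0.0946). By its median Rbfa differed by 0.17 (SE 0.062, limma adjusted p 0.307). At gene level Rbfa reached a limma adjusted p of 0.0393 when ISCL4 replicate 4 was left out.

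Acaa2, the thiolase of mitochondrial fatty acid oxidation, differed mainly at 1 probe set. Probe set 4652837 had signals of 8.72, 9.17 and 9.56 in ISCL4 mice and 8.26, 8.62 and 8.83 in FVB-like mice. A single ISCL4 mouse fell among the FVB-like mice, and the difference of 0.61 (SE 0.119) had a limma adjusted p of 0.125. Within each array set the groups were separate. The lowest ISCL4 and highest FVB-like mice had 8.96 and 8.83 in array set A, and 8.72 and 8.70 in array set B. Of the 11 probe sets of Acaa2, 5 were higher and 6 lower, and the gene's median differed by 0.05 (SE 0.098).

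**Figure D3:**
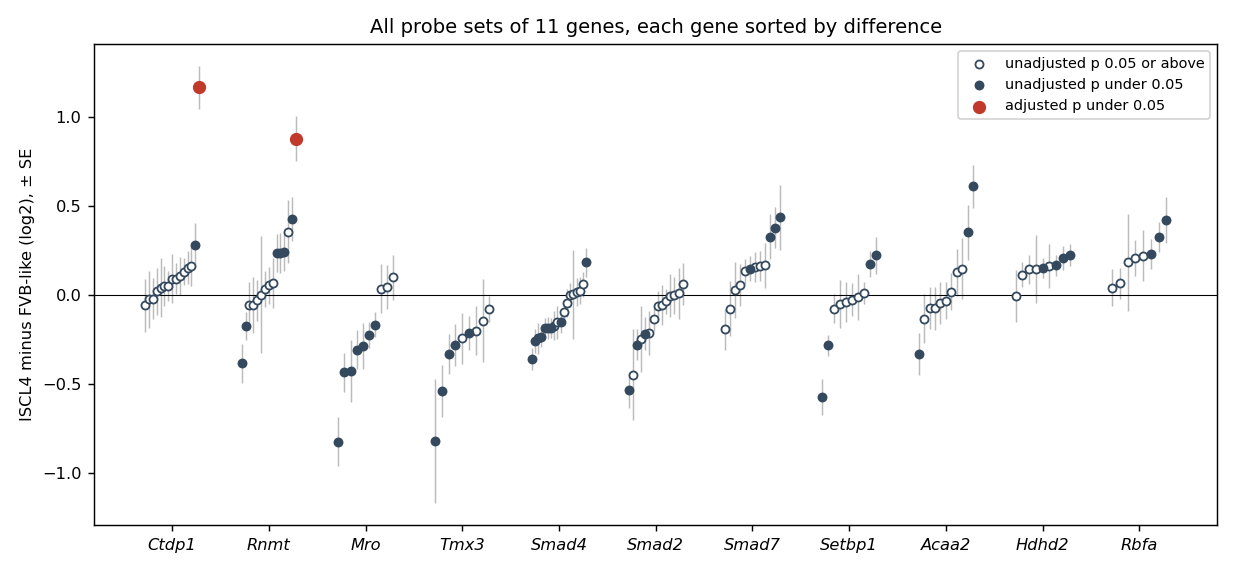
Difference of every probe set of 11 genes (ISCL4 minus FVB-like, log2; bars show the SE), sorted within each gene, filled where the unadjusted p was under 0.05 and red where the adjusted p was. Ctdp1 and Rnmt each have 1 probe set far above the others, whereas the 9 probe sets of Tmx3 all lie below 0 and the 8 of Rbfa all above.

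Of 8 genes for membrane trafficking, protein folding and ubiquitin ligation, 7 had a lower median in ISCL4 mice and 1 a higher, with a median difference of -0.04, and none was called. At an unadjusted p under 0.05, 15 of their 100 probe sets were counted (15%, against 10.2% of all probe sets), 2 higher and 13 lower. Tmx3, a disulfide isomerase of the endoplasmic reticulum and the last gene of the interval, was lower at 9 of 9 probe sets, 5 of them with an unadjusted p under 0.05. Its median was 7.34, 7.58 and 8.07 in ISCL4 mice and 7.75, 8.11 and 8.55 in FVB-like mice.

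The Tmx3 ranges overlapped, with 5 ISCL4 mice below all FVB-like mice. The difference, -0.46 (SE 0.105, 1.38-fold), measured -0.41 for array set A and -0.52 for array set B, and limma's adjusted p of 0.130 left it uncalled. By the gene-level value Tmx3 differed by -0.32 (SE 0.094, limma adjusted p 0.162). By median, Sec11c, a subunit of signal peptidase, followed at -0.12 (SE 0.057), with 7 of 8 probe sets lower. Then came Psmg2, a chaperone of proteasome assembly, at -0.11 (SE 0.080).

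Among 11 transcription factors and chromatin proteins, 5 medians were higher and 6 lower in ISCL4 mice, none called. An unadjusted p under 0.05 was found at 17 of 107 probe sets, or 15.9%, against 10.2% of all probe sets. Setbp1, which binds the oncoprotein SET, had 4 probe sets with an unadjusted p under 0.05, 2 lower and 2 higher in ISCL4 mice. Probe set 4512987 had signals of 8.94, 9.53 and 9.94 in ISCL4 mice and 9.47, 10.04 and 10.26 in FVB-like mice, with overlap, and differed by -0.57 (SE 0.099, limma adjusted p 0.0799). Probe set 5600831 differed by -0.28 (SE 0.059, limma adjusted p 0.166), and probe sets 4490138 and 5487549 by 0.22 (SE 0.104) and 0.17 (SE 0.074).

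Within array set A, Setbp1 probe set 4512987 ran from 9.57 to 9.94 in ISCL4 mice and from 10.13 to 10.26 in FVB-like mice; within array set B, it ran from 8.94 to 9.48 in ISCL4 mice and from 9.47 to 9.94 in FVB-like mice. The groups were thus separate in set A and met narrowly in set B. The gene's median over its 10 probe sets differed by only -0.09 (SE 0.057). Zbtb7c, a zinc finger protein, differed by -0.13 (SE 0.055), Zfp516 by 0.18 (SE 0.095) and the homeobox gene Rax by 0.18 (SE 0.194).

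By gene median, the neuronal genes of the interval differed by -0.08 to 0.12, some of them with a wide SE. Of 11 measured genes for neuronal signalling, synapses and axon guidance, 6 had a higher and 5 a lower median in ISCL4 mice. The median difference was 0.003 and none was called. An unadjusted p under 0.05 was found at 5 of 113 probe sets, or 4.42%, against 10.2% of all probe sets. The widest differences by median were 0.12 (SE 0.125) for the melanocortin receptor Mc4r, 0.10 (SE 0.108) for the katanin-like Katnal2, -0.08 (SE 0.198) for the complexin Cplx4 and 0.07 (SE 0.060) for the netrin receptor Dcc. Among single probe sets, 4799673 of Rab27b, another gene of the list, differed by 0.55 and was not called (limma adjusted p 0.496). The median of Dcc averaged 8.47 ± 0.131 in ISCL4 mice and 8.40 ± 0.137 in FVB-like mice (SD, n = 8 each), but 25 of its 37 probe sets were lower in ISCL4 mice and the gene-level difference was -0.04 (SE 0.048).

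Of 8 genes of the centrosome, spindle, nuclear pore and DNA repair, 2 medians were higher and 6 lower, and none was called. An unadjusted p under 0.05 was found at 14 of 157 probe sets, or 8.92%, against 10.2% of all probe sets. Haus1, a subunit of the augmin complex, differed by 0.11 (SE 0.139), the DNA polymerase Poli by -0.08 (SE 0.069), and Rttn, a centriole protein with 54 probe sets, by 0.07 (SE 0.095). Of 5 immune and cell death genes, 2 medians were higher and 3 lower, none called. Of their 54 probe sets, 2 had an unadjusted p under 0.05, or 3.70%, against 10.2% of all probe sets.

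Cd226, a receptor of T cells and natural killer cells, had the highest difference by gene median, 0.44, with the widest error among the genes named here (SE 0.218, limma adjusted p 0.458). Its median was 3.49, 4.24 and 5.25 in ISCL4 mice and 3.21, 4.00 and 4.46 in FVB-like mice, with most mice of both groups in the same range. By the gene-level value Cd226 differed by 0.10 (SE 0.081), and the highest difference at that level was 0.21, at Haus1 (SE 0.087). Impa2 has no gene-level value, and by the mean of its probe sets it differed by 0.23. All 9 probe sets of Cd226 were dim, meaning that their mean signal lay below 6.20, the 25th percentile of the table.

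**Figure D4:**
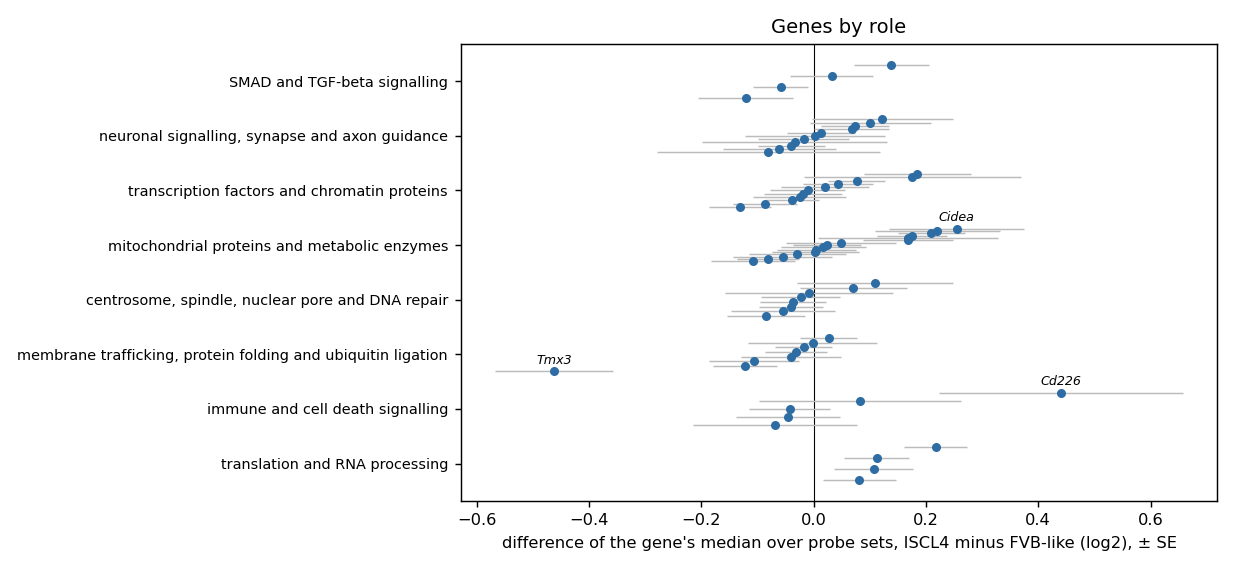
Difference of each gene's median over its probe sets (points; ISCL4 minus FVB-like, log2; bars show the SE) for the 8 groups of genes by role. All 4 genes listed under translation and RNA processing lie above 0, though Txnl4a is at -0.03 by the mean of its probe sets. That list was drawn up with earlier results known and holds both genes with a called probe set. Tmx3 (-0.46) and Cd226 (0.44) are the extremes, and no gene in the plot was called by its median.

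Dim probe sets made up 195 of the 952, or 20.5%, and they include several of the remaining wide differences. Probe set 4864982 of Pard6g, a cell polarity protein, had signals of 2.75, 4.58 and 5.48 in ISCL4 mice and 4.31, 5.29 and 6.43 in FVB-like mice, a difference of -0.98 (SE 0.342). Probe set 4304943 of Impa2 had 4.24, 5.35 and 5.49 in ISCL4 mice and 3.02, 4.03 and 5.47 in FVB-like mice, a difference of 0.90 (SE 0.308). Each overlapped, and neither was called (limma adjusted p 0.381 and 0.373). Pard6g was lower in ISCL4 mice at 4 of its 5 probe sets, of which 2 were dim. Its median differed by -0.25 (SE 0.116, limma adjusted p 0.427). The gene-level value of Pard6g differed by -0.30 (SE 0.095, limma adjusted p 0.180), with 5 ISCL4 mice below all FVB-like mice.

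The lowest difference of the interval, -0.99 at Poli probe set 5514634 (SE 0.418, limma adjusted p 0.445), rested on a probe set above that mark but with wide spread: it ran from 3.66 to 7.12 in ISCL4 mice and from 5.90 to 7.75 in FVB-like mice. The groups overlapped there, unlike at Smad4 probe set 5340457, whose difference was only -0.36.

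Whether the group difference was unequal in the 2 array sets is a measure that did not choose the members. The interaction of group and array set passed an adjusted p of 0.05 in limma at 0 of the 952 probe sets, and at 0% of all probe sets; 50, or 5.25%, had an unadjusted p under 0.05, against 6.22% of all probe sets. No such inequality was detectable at single probe sets with 4 mice per group and set.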

How the data were processed

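The files hold log2 values deposited by the authors, per gene and per exon probe set, for the same 16 arrays. The submitters' processing notes list RMA, Partek 6.6 and build mm9, without saying what each was used for. RMA in general subtracts background and gives all arrays the same distribution, so a change common to all probe sets would not show. No detection call was used, so a dim value can be background, and levels of different probe sets were not compared.

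Of 188590 exon probe sets, 179269 carried 1 symbol in the platform annotation, 1325 several and 7996 none, and for 178914 the symbol was found among RefSeq genes (assembly GRCm38.p6; 12 member genes with 96 probe sets through an older symbol). That assembly differs from the files' build and gave names, chromosome and order only. No filter on low values was applied, so all 952 members and 83 genes were fitted. Groups and replicate numbers came from the sample titles.

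Values were fitted with limma 3.58.1 in R 4.3.3 (lmFit and eBayes, array set as a covariate) and p values adjusted by Benjamini-Hochberg over the whole table of each level. Tables and figures used Python 3.11.15, pandas 2.3.3 and matplotlib 3.10.9. The steps were tested on simulated data. Genes were named if a call, one of the 10 highest or lowest differences by gene or probe set, a place next to either end of the interval, or membership in a role list (the 4 largest differences of each) put them forward. The members and lists were chosen with earlier results of these data known. Alternatives were another covariate, a replicate block, quantile normalization, centring, each mouse left out, each array set alone, another variance prior, a filter on dim probe sets and means in place of medians.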

Additional observations from a re-analysis of the deposited data

Results flagged for a closer look

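In 6 of 158 groups of 8 mice, over 79 features, the highest mouse lay further from the next, as a share of the group's range, than Dixon's critical value allows; chance gives about 1 in 20 groups. ISCL4 replicate 3 had a log2 signal of 8.25 at Ctdp1 probe set 4690151, where the next ISCL4 mouse had 7.85, and every ISCL4 mouse stayed above every FVB-like mouse. ISCL4 replicate 2 had a Zbtb7c median of 7.57, with the next at 7.37, and ISCL4 replicate 1 a Katnal2 median of 6.32, with the next at 6.02. FVB-like replicate 7 had an Hdhd2 median of 10.61 (next 10.37), FVB-like replicate 5 a Smad2 median of 9.12 (next 8.74) and FVB-like replicate 6 a Grp median of 9.27 (next 9.07).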

How the results depend on the processing

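With 2 probe sets, 0 gene medians, 1 gene-level feature and 2 within-gene deviations called by limma, counts shifted as follows. A trended and robust variance prior called 10 probe sets (4 higher, 6 lower) and 2 gene medians (Mro and Tmx3). A filter at the 25th percentile of signal, which tests fewer probe sets, called 5 and 1, adding lower probe sets of Mro, Setbp1 and Smad4. The mean in place of the median called 2 genes, and 47 of 15796 over the whole table. It turned the direction of several genes, among them Txnl4a (-0.03), Dcc (-0.04), Cbln2 (0.02) and Rab27b (0.08), so the direction of a small gene difference depends on the summary. Array set A alone called 0 probe sets, 0 gene-level features and 0 deviations, and so did array set B alone, with 4 mice a group; Ctdp1 probe set 4690151 had adjusted p values of 0.586 and 0.0784 there. Without the array set covariate 0 gene-level features were called; the cause was not tested. Leaving out single mice gave 1 to 2 probe sets, 0 to 1 gene medians, 0 to 2 gene-level features, 2 to 3 deviations and 0 to 0 interactions. Over the whole table these ranges were 26 to 47, 3 to 11, 19 to 66, 23 to 29 and 0 to 2. The call of Mro at gene level ended without ISCL4 replicate 2 or 6 or FVB-like replicate 7 (0.0504 to 0.0529), and Ctdp1 kept its call without each mouse.

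Same-numbered mice of the groups were not shown to be paired: their deviations correlated at 0.014 to 0.144, over 0.1 in 3 of 8 pairs. A fit blocked on replicate number called 3 probe sets (2 higher, 1 lower), 0 gene-level features and 0 deviations. Over the whole table it called 30, 18 and 17. Smad2 probe set 4582989 was added at a limma adjusted p of 0.0428. The deviations of Ctdp1 and Rnmt had limma adjusted p values of 0.186 and 0.129 in that fit. Over 81 named features and 1984 values, 40 changed sign, none of them called. The number of arrays and the dim signal of 20.5% of the probe sets limit what small differences could be seen.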
